A study of Mus musculus with 3 samples.

Results

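Cells carrying the transcripts of primordial germ cells were selected from single-cell RNA-seq of 3 wild-type mouse embryos by the unique molecular identifiers (UMIs, each standing for 1 captured mRNA molecule) of Dppa3, Dnd1 and Nanos3. A barcode was kept for quality control (QC) when it held 1500 to 8500 detected genes (at most 7500 in embryo 2) and at most 10% mitochondrial UMIs. A QC barcode was taken as a member when it held at least 1 UMI of Dppa3 and at least 1 UMI of Dnd1 or Nanos3. The rule found 145 members among 22168 QC barcodes (23533 barcodes were deposited), with 56 in embryo 1, 24 in embryo 2 and 65 in embryo 3.

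The embryos came from a C57BL/6 x 129 SvEv background and were taken on embryonic day 8, with 0 to 2 somites by the stage label and 0 to 1 by the protocol, extraembryonic tissue removed before dissociation, and male by the genotyping of the study. Each embryo gave 1 library of 3′ ends, so the 3 embryos are the replicates and there was no treated or mutant group. The comparisons are therefore between cells within the same embryos, and levels are given as CPM, the UMIs of a gene scaled to a total of 1000000 UMIs over the cells summed in each embryo. Where 3 values are given together, they are those of embryos 1, 2 and 3 in that order.

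Primordial germ cells are the founders of eggs and sperm. In the mouse they are induced in the posterior epiblast by BMP4 from the extraembryonic ectoderm, with Wnt3 making the epiblast competent, and the transcription factors Prdm1, Prdm14 and Tfap2c then shut down the somatic programme, bring back pluripotency genes and start epigenetic reprogramming. Around the stage sampled here they lie at the base of the allantois and begin to enter the hindgut endoderm. Of the selecting genes, Dppa3 (Stella) is a chromatin factor of early germ cells and of the oocyte, Dnd1 is an RNA-binding protein needed for germ cell survival, and Nanos3 is an RNA-binding protein that recruits the deadenylase complex and protects migrating germ cells.

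Members made up 0.914% of QC barcodes in embryo 1 (95% Clopper-Pearson interval 0.691 to 1.18%), 0.296% in embryo 2 (0.190 to 0.440%) and 0.820% in embryo 3 (0.634 to 1.04%), a mean of 0.677% ± 0.333 (SD, n = 3 embryos). The share in embryo 2 lay below the intervals of both other embryos. These intervals cover counting error only. Members held a median of 28794, 13487 and 21251 UMIs, against 26683, 14461 and 16234 in all other QC barcodes, so embryo 2 was also the shallowest library and members were the deeper cells in embryos 1 and 3. Summed over members, the embryos gave 2133688, 585585 and 1869436 UMIs. The rule needs detected molecules, and with each cell thinned to 5000 UMIs 39 members met it (14, 7 and 18), with embryo 2 lowest again. Scores for doublets placed 15 members (10.3%) in the highest 6% of their library, against 5.58% of other barcodes. Libraries shared 22, 18 and 19 barcode sequences in pairs (embryos 1 and 2, 1 and 3, and 2 and 3), and no pair of members shared one.

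Detection of the selecting genes set the size of the group. Dppa3 was detected in 129, 87 and 149 QC barcodes, or 1.65% of all. Dnd1 was far more widespread, at 916, 448 and 733 barcodes, and Nanos3 was rare, at 32, 25 and 47. Of the members, 114 held Dnd1 without Nanos3, 4 held Nanos3 without Dnd1, and 27 held all 3 transcripts. Dppa3 stood at a single UMI in 53 members (21, 7 and 25) and at 2 or more in 92 (35, 17 and 40), with a median of 2 and a highest count of 22. Just inside the threshold were 34 members with exactly 1 UMI of Dppa3 and 1 UMI of one other selecting gene, and just outside were 220 barcodes (73, 63 and 84) that held Dppa3 and neither Dnd1 nor Nanos3.

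**Figure D1:**
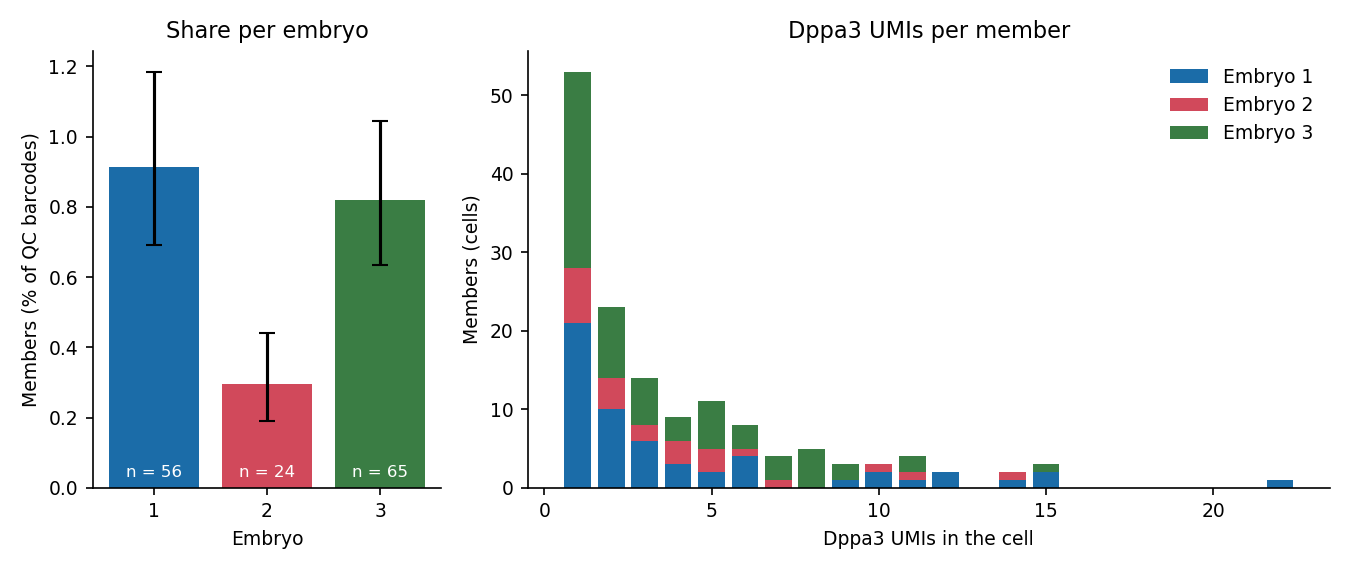
Left, members as a percent of QC barcodes in each embryo, with bars for the 95% Clopper-Pearson interval and the number of cells in each bar. Right, the number of members at each count of Dppa3 UMIs, stacked by embryo, with 53 members at 1 UMI and 1 member at the highest count, 22.

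Levels of the selecting genes follow from the rule and are a description. Dppa3 stood at 110, 164 and 127 CPM in members and at 0.528, 0.537 and 0.627 in all other QC barcodes. Dnd1 stood at 53.9, 82.0 and 76.0 in members against 5.43, 3.29 and 4.57. Nanos3 stood at 9.37, 12 and 9.63 in members against 0.103, 0.138 and 0.207.

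The label was checked against germ cell genes that the rule did not use. Of 145 members, 65 (44.8%) held a UMI of Prdm1, 85 (58.6%) of Tfap2c and 18 (12.4%) of Prdm14, and 106 (73.1%) held at least 1 of these 3 transcripts. Ifitm3 (Fragilis) was detected in 136 members (93.8%), Pou5f1 in 143 (98.6%), Alpl, the alkaline phosphatase used to stain germ cells, in 120 (82.8%) and Kit in 84 (57.9%). After thinning to 5000 UMIs, which left out 2 members, Ifitm3 was found in 70.6% of members and 12.9% of other barcodes, Prdm1 in 16.8% and 3.33%, and Tfap2c in 22.4% and 2.44%. Pou5f1 and Alpl set members apart less, since Pou5f1 was found in 70.6% of thinned members, 34.7% of other barcodes and 73.3% of caudal streak cells, and Alpl in 42.0%, 10.9% and 20.2%. Kit was found in 21.7%, 5.93% and 3.30%, and in 6.61% of erythroid barcodes. Blood cells, which should lack germ cell transcripts, were used to gauge the background from free RNA. Transcripts made by the blood cells themselves would also count in it, and their part was not tested. In 351 erythroid barcodes (0, 331 and 20, so that embryo 2 gave most of this background and embryo 1 none), with a median of 15550 UMIs against 25428 in members, Dppa3 was found in 1 (0.285%) and Dnd1 in 10 (2.85%). After thinning them in the same way, Prdm1 was found in 0.287% and Pou5f1 in 1.72%, while Ifitm3 reached 20.7%, so that a UMI of Ifitm3 in a single cell was not particular to members.

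Members were not uniform, and the count of Dppa3 separated them. Among the 92 members with 2 or more UMIs of Dppa3, 75 (81.5%) held a UMI of Prdm1, Prdm14 or Tfap2c, against 31 of the 53 members with 1 UMI (58.5%). The 2 sets were of unequal depth in the opposite sense, with a median of 20453.5 UMIs in the former and 28808 in the latter. Tfap2c was found in 43.4% of members with 1 UMI of Dppa3 and in 37.7% of the 220 barcodes just outside the rule. Prdm1 was found in 24.5% and 19.1% of them, and Prdm14 in 7.55% and 2.27%. Ifitm3 stood at 463, 595 and 673 CPM in members with 2 or more UMIs of Dppa3, at 135, 224 and 123 in members with 1, and at 62.9, 105 and 88.0 in the 220 barcodes just outside the rule, so that the 3 groups did not overlap. Gdf3, a TGF-beta ligand of pluripotent cells, stood at 27.9, 32.6 and 28.9 in the first of these groups, at 1.29, 0 and 3.61 in the second and at 1.71, 0.597 and 2.29 in the third. Klf2, a pluripotency factor, was likewise high in the first group alone, at 55.1, 67.8 and 50.1 against 7.77, 0 and 3.61 in members with 1 UMI of Dppa3. L1td1, an RNA-binding protein of pluripotent cells, stood at 82.3, 92.9 and 133 in the first group and at 14.2, 21.4 and 14.4 in the second, which did not exceed the 19, 28.4 and 28.6 of all other cells.

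For these genes members with a single UMI of Dppa3 were thus closer to the cells outside the rule than to the other members. They were not alike in everything. Psme1, a subunit of the proteasome activator, stood at 140, 256 and 144 in members with 1 UMI of Dppa3, above the 98.5, 127 and 116 of the barcodes just outside and the 75.1, 70.1 and 78.9 of all other cells, yet below the 348, 361 and 464 of members with more Dppa3. Msx1, a homeobox target of BMP, showed no such order, at 265, 266 and 194 in members with 2 or more UMIs, 268, 486 and 226 in members with 1, and 237, 311 and 221 just outside. Wnt6, a ligand of surface ectoderm, did not follow this order either, at 102, 105 and 101 in the barcodes with Dppa3 alone, against 51.4, 133 and 40.4 in members with 2 or more UMIs of Dppa3. The 31 members with Nanos3 held little of it, at 11.6, 0 and 17.8, where the 114 members with Dnd1 alone held 73.0, 181 and 47.2. Since UMIs of the selecting genes sorted these groups, no test was made between them.

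**Figure D2:**
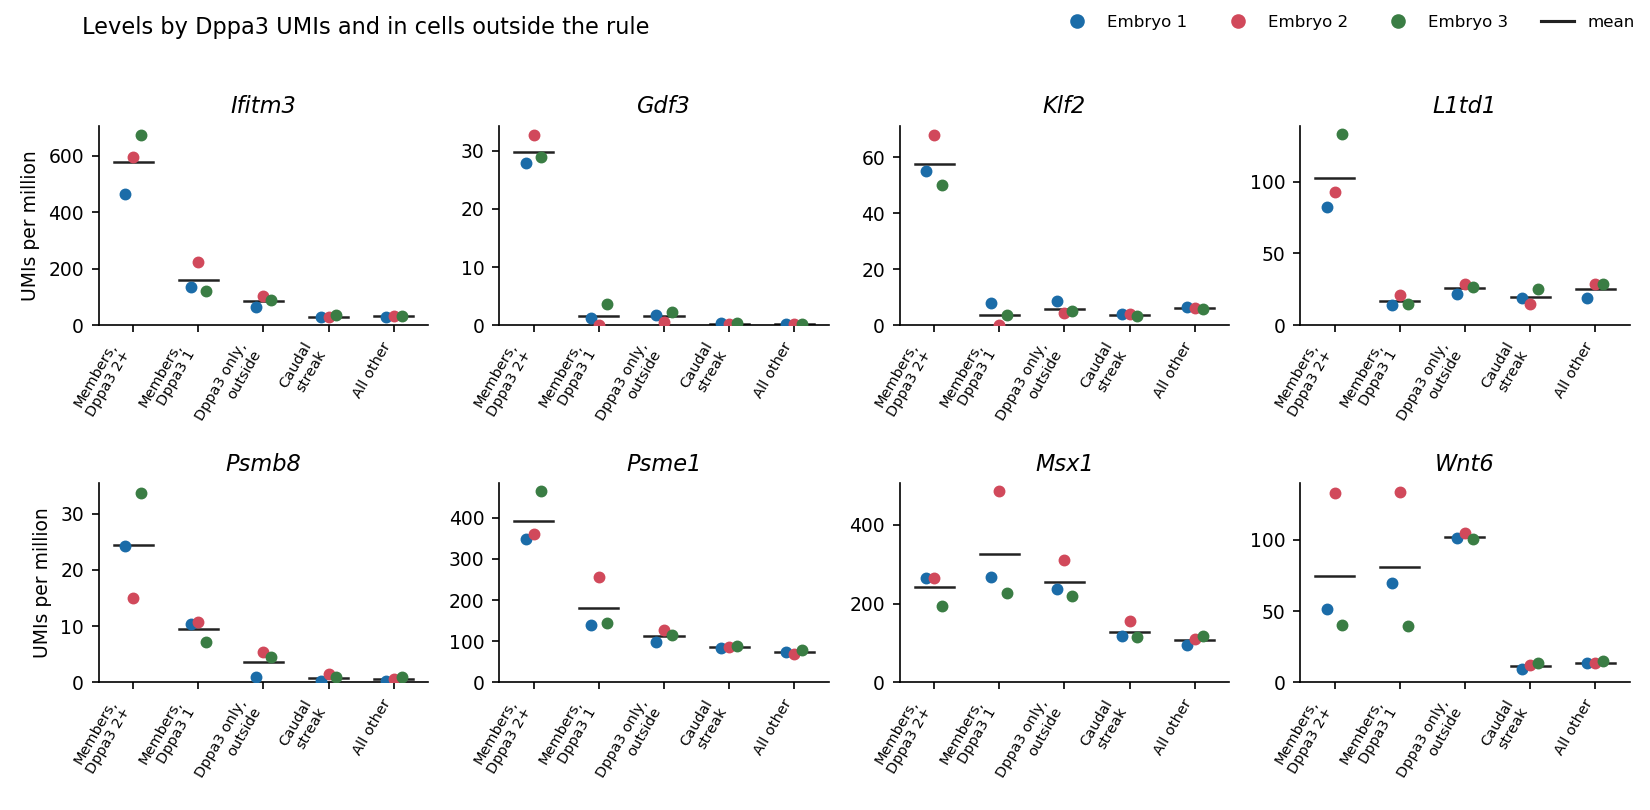
CPM of 8 genes in members with 2 or more UMIs of Dppa3, members with 1, barcodes with Dppa3 but neither other selecting gene, caudal streak cells and all other QC barcodes, with a point for each embryo and a line for the mean. Ifitm3, Gdf3, Klf2, L1td1, Psmb8 and Psme1 stand highest in members with 2 or more UMIs of Dppa3, whereas Msx1 and Wnt6 do not.

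To find which other genes set members apart, their summed UMIs were compared with those of all other QC barcodes of the same embryos by edgeR's quasi-likelihood test, with Benjamini-Hochberg adjustment over 15485 genes and an adjusted p under 0.05. In members 179 genes were higher (1.16% of genes tested) and 46 lower (0.297%), or 1.45% in all, and 2281 genes had an unadjusted p under 0.05. The median log2 fold change of all genes was -0.04. When the embryo was added to the model as a block, since members and other cells of 1 embryo share it, 655 genes were higher (4.23%) and 793 lower (5.12%), or 9.35% in all, including all 179 and all 46. The adjusted p values of this block fit can be very small even for genes whose levels differ widely between embryos. They are therefore not a measure of the spread between embryos. Leaving out embryo 1, 2 or 3 lowered the counts, to 99, 57 and 56 genes higher and 40, 2 and 14 lower.

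**Figure D3:**
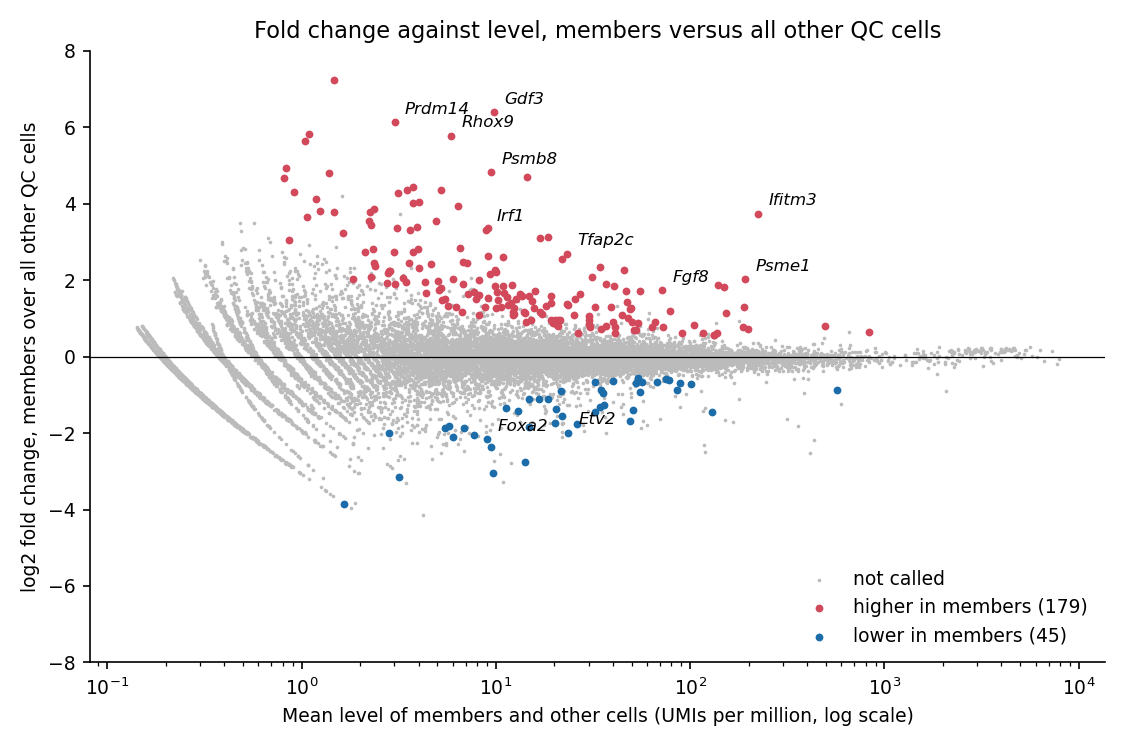
The log2 fold change of members over all other QC barcodes against the mean level in CPM (log scale), 1 point per gene, with genes that passed the test in colour. The higher genes include Psme1, Fgf8, Ifitm3, Psmb8, Prdm14 and Gdf3, and 579 genes without a UMI in members, 1 of them lower by the test, are not drawn.

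Among the genes with the largest fold changes were several from none of the lists. Sprr2a3, a small proline-rich protein of epithelia with near-identical copies, stood at 17.3, 30.7 and 35.3 CPM in members against 1.00, 1.10 and 1.05 (log2 fold change 4.70 ± 0.30, adjusted p = 2.8e-05). Scg3, a secretory granule protein, stood at 6.09, 8.54 and 6.95 against 0.290, 0.351 and 0.311 (4.43 ± 0.36, adjusted p = 0.00017). The phospholipase gene Pla2g10 (4.36) and the sperm acrosomal gene Dkkl1 (4.01) passed like these without each embryo, whereas Klk10 (4.35) was lost without embryo 2 (3.86, adjusted p = 0.068) or embryo 3 (4.17, adjusted p = 0.089) and AU015836 (4.05) without embryo 3 (4.03, adjusted p = 0.052).

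Of the 12 tested genes of germ cell specification and maintenance, 6 were higher in members and none lower, or 11 and 0 with the embryo as a block (1.16% of all genes were higher, and 4.23% with the block), and the median log2 fold change was 1.67 against -0.04 for all genes. Ifitm3, an interferon-induced membrane protein that marks the first germ cells, stood at 344, 476 and 428 CPM in members and at 30.4, 30.8 and 31.6 in other cells, a log2 fold change of 3.74 ± 0.13 (SE, adjusted p = 3.7e-07). All 3 member values were over those of other cells, and embryos differed little outside the group. Reads of Ifitm3 can be hard to tell from those of its near-identical neighbours Ifitm1 and Ifitm2. Prdm14, which represses the somatic programme, stood at 2.34, 8.54 and 6.95 in members, from 23 UMIs in all, against 0.0724, 0.0689 and 0.0792 (log2 fold change 6.13 ± 0.56, adjusted p = 0.00036). Tfap2c, an AP-2 factor that acts downstream of Prdm1, stood at 42.6, 41.0 and 36.9 against 6.44, 4.94 and 7.21 (2.69 ± 0.18, adjusted p = 4.3e-05). For both genes the groups did not overlap. Prdm14 was so low in other cells that it met the filter on low genes only through its level in members. Its call was kept with no such filter.

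Prdm1 (Blimp1), the zinc finger repressor that starts the germ cell fate, stood at 15.5, 32.4 and 26.7 in members against 7.34, 6.88 and 6.95 in other cells (1.71 ± 0.24, adjusted p = 0.0054). Its groups did not overlap, but the difference missed the threshold without embryo 2 (1.56, adjusted p = 0.076) or embryo 3 (1.58, adjusted p = 0.14). Kit, the receptor for stem cell factor, stood at 37.5, 58.1 and 29.4 against 12.7, 11.7 and 12.8 (1.63 ± 0.19, adjusted p = 0.0023). Alpl stood at 98.9, 70.0 and 84.5 against 33.8, 19.1 and 25.8 (1.73 ± 0.20, adjusted p = 0.0022). Both held without each embryo in turn.

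The general pluripotency factors of the list did not pass the test, though Pou5f1, Sox2 and Nanog did by DESeq2 (adjusted p of 0.022, 0.0048 and 0.0049), without the highest doublet scores (0.044, 0.044 and 0.047 by edgeR) and with at least 2 UMIs of Dppa3 (0.035, 0.032 and 0.026), as did Pou5f1 and Nanog with no filter on low genes (0.018 and 0.016). Pou5f1 stood at 261, 188 and 245 in members against 166, 78.7 and 128 in other cells, with no overlap (log2 fold change 0.92 ± 0.23, adjusted p = 0.088). Both groups followed the same order of embryos, and with the embryo as a block the difference passed, with an adjusted p of 1.5e-27. Sox2 stood at 73.1, 82.0 and 85.1 against 62.1, 52.2 and 55.8 (0.49 ± 0.11, adjusted p = 0.07, or 0.00033 with the block). Nanog stood at 15.0, 5.12 and 12.8 against 5.15, 2.17 and 3.82, where embryo 2 overlapped the other cells (1.73 ± 0.39, adjusted p = 0.067, or 2.2e-06 with the block). Lin28a, the let-7 inhibitor that permits Prdm1 to be made, stood at 317, 231 and 277 against 316, 233 and 273, and was not separated by either fit (adjusted p = 0.99 in both).

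**Figure D4:**
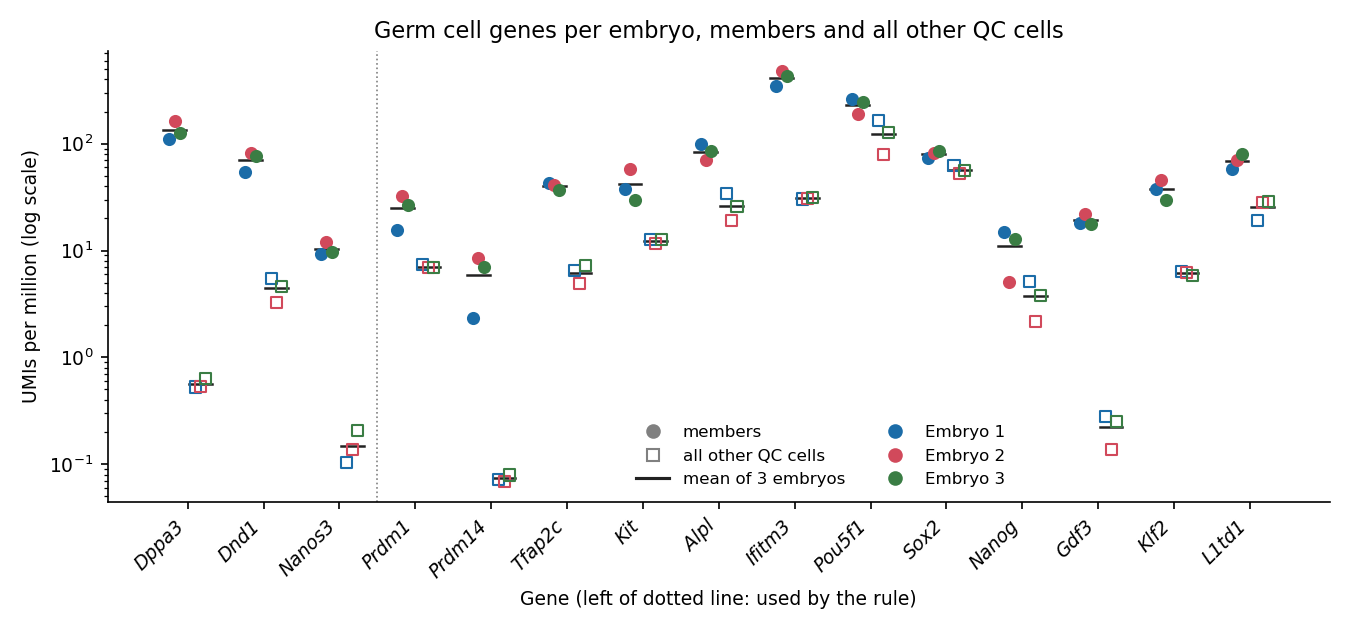
Levels in CPM (log scale) of 15 genes in members (filled circles) and all other QC barcodes (open squares), coloured by embryo, with lines at the mean of the 3 embryos. Genes left of the dotted line were used to choose the members, and Ifitm3, Gdf3 and Prdm14 show the widest gaps among the others.

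Genes of the pluripotency list did not move together. Of 25 tested, 7 were higher and none lower, with a median log2 fold change of 0.18 (10 and 0 with the embryo as a block). Gdf3 (chr6:122605403-122610087, minus strand, mm10), a neighbour of Dppa3 on chromosome 6, stood at 18.3, 22.2 and 17.7 in members against 0.279, 0.138 and 0.250 (log2 fold change 6.39 ± 0.36, adjusted p = 1.2e-05). It had the largest fold change among the named genes that were higher in members. Klf2 stood at 38.0, 46.1 and 29.4 against 6.38, 6.23 and 5.79 (2.56 ± 0.17, adjusted p = 4.2e-05), and Klf5, its relative, at 61.9, 85.4 and 44.9 against 21.1, 14 and 15.3 (1.85 ± 0.21, adjusted p = 0.0022). These 3 genes had no overlap and passed without each embryo in turn.

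L1td1 stood at 57.6, 70.0 and 80.2 in members against 19, 28.4 and 28.6 (1.44 ± 0.21, adjusted p = 0.0066), and was lost without embryo 2 (1.54, adjusted p = 0.076) or embryo 3 (1.38, adjusted p = 0.062). The other genes of the list that passed, Esrrb (3.81, from 9 UMIs), Mycl (1.39) and Utf1 (1.16), were each lost without at least 1 embryo, Mycl without embryo 3 alone (1.19, adjusted p = 0.080) and the other 2 without any one of the embryos. Klf4, which shares targets with Klf2 and Klf5, stood at 11.2, 13.7 and 15.5 against 15.3, 9.42 and 11.6 and overlapped (adjusted p = 0.85). Dppa2 and Tdgf1, markers of pluripotent cells, had no UMI in members, which allows up to 0.654 CPM over all members, and stood at or below 1.18 in other cells. Among 16 genes of the primed epiblast, 1 was higher (Fgf8) and none lower, or 2 and 5 with the embryo as a block.

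Genes used later by germ cells were present at low levels. Of 27 tested among 35 on the list, 7 were higher and none lower (median log2 fold change 1.16), or 8 and 1 with the embryo as a block. Tdrd5, a tudor protein of the pathway that silences transposons, stood at 21.1, 17.1 and 9.09 in members against 2.95, 2.13 and 2.5 (2.62 ± 0.31, adjusted p = 0.0023), held without each embryo and did not overlap. Rhox9 (chrX:37899097-37901770, minus strand), a homeobox gene of an X-linked reproductive cluster with near-identical copies, stood at 3.28, 17.1 and 14.4 against 0.0517, 0.22 and 0.298 (5.78 ± 0.76, adjusted p = 0.0039). Embryo 1 was the low one, and the call was lost without embryo 2 (5.65, adjusted p = 0.082) or embryo 3 (5.86, adjusted p = 0.054). All 44 of its UMIs in members lay in those with 2 or more UMIs of Dppa3, where it stood at 5.14, 25.1 and 26.0.

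The others that passed were Lrrc34 (2.80), M1ap (2.47), Tdrd12 (2.03), Atf7ip2 (1.12) and Syce2 (0.77), the last a part of the synaptonemal complex of meiosis, and each was lost without at least 2 of the embryos in turn.

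Genes that mark germ cells after they reach the gonad were low, and none named here was called. Ddx4 (Vasa), an RNA helicase, stood at 2.34, 5.12 and 3.74 against 2.19, 3.61 and 2.92 (adjusted p = 0.90). Dazl, an RNA-binding protein that licenses germ cells, had 2 UMIs in all members, and Stra8, which starts meiosis, had none, too few to compare with other cells at this depth.

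A group of interferon-regulated and antigen-processing genes was higher in members. Interferons induce these genes through IRF and other factors, and several encode the immunoproteasome and its activator, which cut proteins into peptides for display on MHC class I. Of 36 tested among 43 on the list, 15 were higher and none lower, or 20 and 0 with the embryo as a block, with a median log2 fold change of 0.80. Their summed level was 901, 1071 and 1067 CPM in members and 412, 436 and 437 in other cells, or at least 2.19 times as high in each embryo. Psme1, a subunit of the 11S activator, was the most abundant, at 273, 328 and 322 in members against 75.1, 70.1 and 78.9 (2.03 ± 0.11, adjusted p = 1.2e-05). Psme2, its partner subunit, stood at 193, 234 and 232 against 57.4, 58.8 and 61.7 (1.88 ± 0.11, adjusted p = 2.0e-05). The 2 subunits were thus higher by nearly the same factor, with no overlap.

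Psmb8 (chr17:34197721-34201454, plus strand), a catalytic subunit of the immunoproteasome, stood at 19.2, 13.7 and 21.9 in members against 0.347, 0.647 and 1.01 (4.82 ± 0.44, adjusted p = 0.00036). Irf1, the transcription factor that acts on many of these genes, stood at 15.9, 15.4 and 17.1 against 1.45, 1.43 and 2.00 (3.32 ± 0.27, adjusted p = 0.00017). Tapbp (tapasin), which loads peptides onto MHC class I, stood at 23, 10.2 and 22.5 against 3.57, 3.00 and 3.46 (2.59 ± 0.25, adjusted p = 0.00064). These, with Psme1, Psme2, Nmi (log2 fold change 3.55) and the ADP-ribosyltransferase Parp12 (3.95), passed without each embryo in turn.

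The other 8 genes of the list that passed were lost without at least 1 embryo. They were Psmb9, Isg15, Parp9, Parp10, Parp14, Dtx3l, Pml and Socs2, with log2 fold changes from 0.90 to 4.31, and the number of higher genes on the list was 13, 10 and 7 without embryos 1, 2 and 3. Psmb9, the other inducible subunit encoded beside Psmb8, had 10 UMIs in members and none in embryo 2. Not every gene of this kind moved. B2m, the light chain of MHC class I, stood at 14.1, 8.54 and 10.2 in members against 20.1, 17.8 and 12.9 (-0.55 ± 0.25, adjusted p = 0.34). The receptor gene Ifngr1 stood at 5.16, 3.42 and 7.49 against 7.40, 5.31 and 8.03 (adjusted p = 0.78).

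Constitutive subunits of the proteasome served for comparison. None of the 33 tested was called in either direction (1 was lower with the embryo as a block), and their median log2 fold change was -0.05.

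The promoters of these genes were searched for the letters through which interferon acts. The core of the interferon-stimulated response element (ISRE), bound by IRF factors, was taken as GAAA, any 2 bases and GAAA, and TTCNNNGAA (N is any base) is the gamma-activated sequence. Windows of 250 bases before to 50 after each RefSeq start (GRCm38.p6) were read on both strands, and 11 of the 15 higher genes had one. The ISRE core was found for 2 of the 11 (Isg15 and, after the start, Psme1), or 18.2%, against 3.99% of all 27025 genes with a window, and TTCNNNGAA for 2 of the 11 (Irf1 and Psmb8) against 9.55%. Among all 31 tested genes of the list with a window, 25.8% held the ISRE core; 2 of those 8 genes were higher in members. Of the 132 genes higher in members with a window, 9.85% held the ISRE core (3.50% of all tested genes) and 12.9% held TTCNNNGAA (8.01%), while the AP-2 letters GCCNNNGGC stood in 25.0% of them, in 28.6% of all tested genes and in 18.55% of all genes with a window. A match describes the letters only. The 150 bases before the start of 3 of these higher genes, of Ifitm2, which was higher too but belongs to the cell surface list and is not among the 15, and of B2m, which was not called, are given 5′ to 3′ on the strand of the gene, to show where these letters lie, with the matches in capitals. Isg15 lies at chr4:156200819-156200968 (minus strand), where 3 matches to the ISRE core overlap, Ifitm2 at chr7:140955962-140956111 (minus), Psmb8 at chr17:34198045-34198194 (plus), Irf1 at chr11:53769864-53770013 (plus) and B2m at chr2:122147537-122147686 (plus). The RefSeq starts used here need not be the ends of the gene in the annotation of the files, and the whole stretch of Psmb8 and part of those of Ifitm2 and B2m lie inside the gene by that annotation.
Isg15: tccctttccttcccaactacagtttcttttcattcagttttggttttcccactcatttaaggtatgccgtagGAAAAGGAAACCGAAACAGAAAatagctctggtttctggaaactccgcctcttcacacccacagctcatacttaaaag
Ifitm2: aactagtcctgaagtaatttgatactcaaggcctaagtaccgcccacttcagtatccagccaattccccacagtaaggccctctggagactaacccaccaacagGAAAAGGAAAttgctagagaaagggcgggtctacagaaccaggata
Psmb8: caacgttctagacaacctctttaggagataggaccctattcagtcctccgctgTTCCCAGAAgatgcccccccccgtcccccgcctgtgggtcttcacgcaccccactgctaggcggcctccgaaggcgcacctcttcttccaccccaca
Irf1: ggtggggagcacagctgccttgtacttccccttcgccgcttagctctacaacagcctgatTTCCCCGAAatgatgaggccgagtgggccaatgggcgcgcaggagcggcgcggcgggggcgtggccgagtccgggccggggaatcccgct
B2m: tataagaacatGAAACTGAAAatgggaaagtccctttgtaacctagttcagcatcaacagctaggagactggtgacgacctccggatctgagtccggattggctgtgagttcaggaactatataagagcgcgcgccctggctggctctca

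Isg15, a ubiquitin-like protein induced by interferon, had 22 UMIs in members and stood at 3.75, 1.71 and 6.95 against 0.274, 0.379 and 0.372 (log2 fold change 3.77 ± 0.48, adjusted p = 0.0034). It was lost without embryo 3 (3.27, adjusted p = 0.11). Ifitm2, a relative of Ifitm3 from the cell surface list, stood at 589, 663 and 632 against 393, 325 and 355 (0.81 ± 0.09, adjusted p = 0.0021) and was lost without embryo 2 (0.72, adjusted p = 0.061). B2m, whose promoter holds the same letters, stood at 14.1, 8.54 and 10.2 in members and overlapped the 20.1, 17.8 and 12.9 of other cells.

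**Figure D5:**
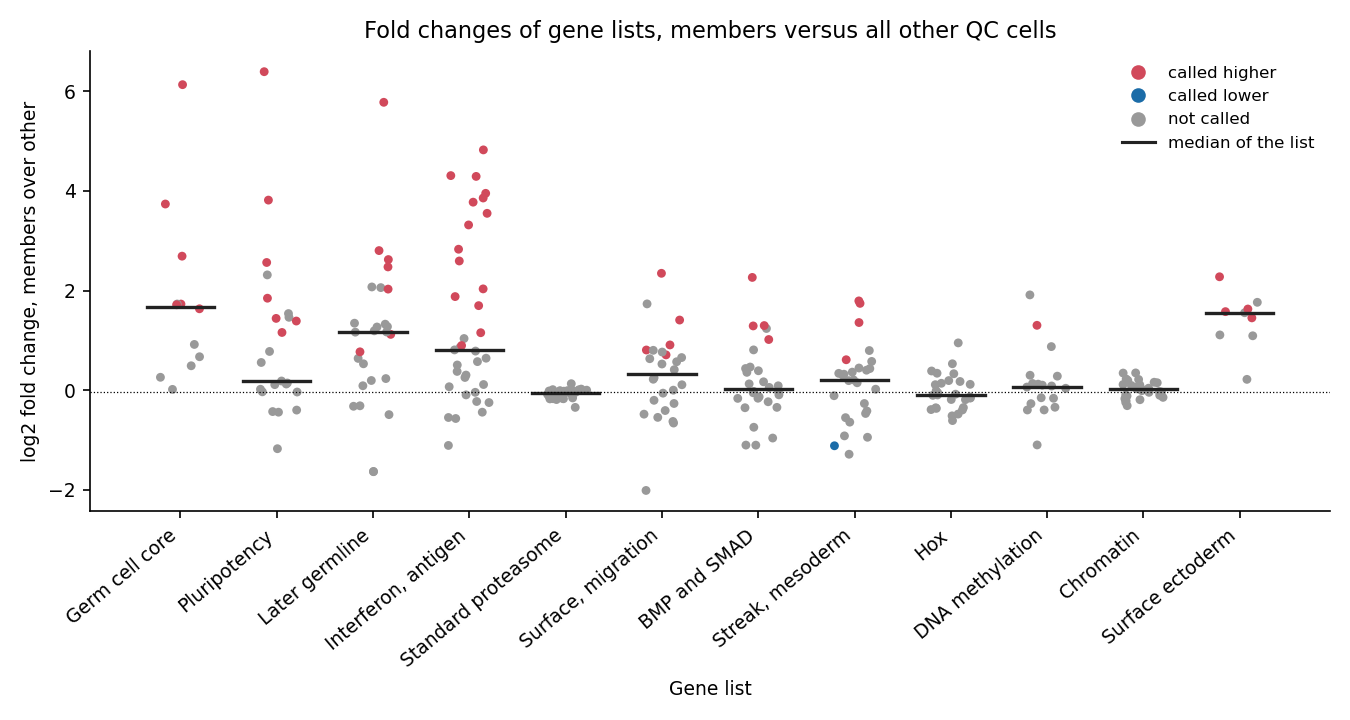
The log2 fold change of members over all other QC barcodes for the genes of 12 lists, 1 point per gene, coloured by the test, with a bar at each list's median and a dotted line at the median of all genes, -0.04. The germ cell, later germline and interferon lists stand over the line and the standard proteasome lies on it, and genes without a UMI in members are not drawn.

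Genes of the cell surface and of migration were examined because germ cells of this stage leave the epiblast and become motile. Of 26 tested, 5 were higher and none lower (median log2 fold change 0.33), or 10 higher and 3 lower with the embryo as a block. Esrp1, a splicing regulator of epithelial cells, stood at 35.1, 25.6 and 23 in members against 11.8, 10.6 and 9.81 (1.41 ± 0.18, adjusted p = 0.0034). The junction protein F11r stood at 87.2, 92.2 and 80.2 against 46.6, 46.0 and 44.1 (0.91 ± 0.10, adjusted p = 0.0015). Both passed without each embryo in turn, and their groups did not overlap. Epcam, an adhesion molecule of epithelia, stood at 250, 304 and 193 against 159, 141 and 149 (0.71 ± 0.14, adjusted p = 0.032), and was lost without embryo 1 (0.71, adjusted p = 0.099) or embryo 2 (0.54, adjusted p = 0.24).

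Receptors and ligands of the migration route did not follow together. Cxcr4, the receptor through which germ cells are drawn to the gonad, stood at 3.28, 5.12 and 4.81 in members against 8.15, 5.4 and 5.85 (-0.63 ± 0.33, adjusted p = 0.41), from 19 UMIs. Its ligand Cxcl12 was higher in members, at 72.2, 88.8 and 56.2 against 26.3, 14.8 and 22.9 (1.71 ± 0.22, adjusted p = 0.0036). Kitl, the ligand of Kit, stood at 18.7, 22.2 and 28.9 against 45.9, 38.5 and 35.8 (-0.78 ± 0.18, adjusted p = 0.072, or 2.0e-05 with the block). It passed as lower by DESeq2 (-0.76, adjusted p = 0.014), with no filter on low genes (-0.80, adjusted p = 0.025), without the highest doublet scores (-0.84, adjusted p = 0.036) and with at least 2 UMIs of Dppa3 (-1.02, adjusted p = 0.020).

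Of 28 tested genes of BMP and SMAD signalling, 4 were higher and none lower, or 6 and 2 with the embryo as a block, and the median log2 fold change was 0.02. Msx1 stood at 266, 336 and 208 in members against 94.3, 111 and 117 (1.30 ± 0.16, adjusted p = 0.0029), and Id4, an inhibitor of helix-loop-helix factors, at 16.9, 18.8 and 13.9 against 4.42, 2.82 and 2.83 (2.26 ± 0.27, adjusted p = 0.0023). The inhibitory SMAD gene Smad7 stood at 60.5, 66.6 and 66.3 against 27.9, 30.8 and 35.9 (1.02 ± 0.14, adjusted p = 0.0048), and was lost without embryo 2 (0.99, adjusted p = 0.097). The ligand Bmp4 stood at 72.6, 88.8 and 53.5 against 32.9, 38.7 and 45.7, with no overlap and no call (0.81 ± 0.18, adjusted p = 0.065, or 3.6e-10 with the block). It passed without embryo 3 (1.13, adjusted p = 0.039), by DESeq2 (0.84, adjusted p = 0.0057), with no filter on low genes (0.79, adjusted p = 0.020) and with at least 2 UMIs of Dppa3 (0.87, adjusted p = 0.034). The receptor gene Bmpr1a overlapped, at 47.8, 44.4 and 44.9 against 56.5, 45.4 and 49.3 (adjusted p = 0.64). Msx2, the relative of Msx1, was higher too (1.29), but not without embryo 1 (1.18) or embryo 2 (1.13).

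Of 27 tested genes of the primitive streak and early mesoderm, 4 were higher and 1 lower (median 0.21), or 8 and 4 with the embryo as a block. Fgf8, a growth factor of the streak, stood at 74.5, 120 and 137 in members against 34.1, 32.4 and 31.3 (1.74 ± 0.19, adjusted p = 0.0016), which held without each embryo. Wnt3 (1.79), Fgf17 (1.36) and Cdx2 (0.61) were higher and Lhx1 lower (-1.12), and each of these was lost without any one of the embryos. T (Brachyury) stood at 59.5, 87.1 and 71.1 against 59.6, 42.2 and 53.8 (0.43 ± 0.16, adjusted p = 0.24, or 0.013 with the block). Of 28 tested Hox genes none was called in either direction by edgeR (1 was higher and 1 lower with the block), and their median was -0.10.

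Markers of other cell types moved with some of these results. Of 9 tested markers of surface ectoderm, 4 were higher in members (Wnt6, Tfap2a, Gata3 and Wnt4), none was lower (6 and 0 with the block), and their summed level was 170, 246 and 106 CPM against 55.7, 49.7 and 49.8. Wnt6 was the most abundant, at 58.1, 133 and 40.1 against 13.6, 13.5 and 14.8 (2.28 ± 0.31, adjusted p = 0.0048), and held without each embryo. Tfap2a stood at 25.8, 22.2 and 12.8 against 7.63, 5.64 and 6.10 (1.63 ± 0.25, adjusted p = 0.011), but was lost without embryo 1 (1.41, adjusted p = 0.079) or embryo 2 (1.51, adjusted p = 0.11) and among members with 2 or more UMIs of Dppa3 (1.14, adjusted p = 0.12). None of the 9 was at 0 in members, and Trp63 was too low to test. Gata3 (1.45) and Wnt4 (1.58) were each lost without 2 of the embryos in turn. Members with Nanos3 held 5.35 CPM of Tfap2a on average and those with Dnd1 alone 25.3. Their part in the results was not tested.

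Markers of extraembryonic endoderm varied widely between embryos and summed to less in members than in other cells of each. Their summed level in members was 28.6, 762 and 1182 CPM against 970, 3576 and 2282 in other cells, none of the 10 passed the test, and 9 were lower with the embryo as a block. Rbp4 was their most abundant gene in members, at 5.62, 178 and 304, and none of the 10 was at 0. Ttr stood at 6.09, 203 and 275 in members against 317, 1096 and 698 (-2.17, adjusted p = 0.25), passed with the block (-2.36, adjusted p = 5.9e-223) and without embryo 1 (-1.87, adjusted p = 0.0032), and 1 member carried 29.8% of its UMIs in members. So small an adjusted p from the block does not measure the spread between embryos, over which Ttr in members ran from 6.09 to 275. Erythroid markers summed to 37.5, 596 and 34.2 in members against 45.6, 1336 and 238, with none of 10 called, and 7 lower with the block. Of the 10 caudal streak markers, Fgf8, Fgf17 and Cdx2 were higher (5 and 1 lower with the block). Of the 10 endothelial markers tested, Cldn5 was higher and Etv2 and Kdr were lower, and of 10 gut endoderm markers Foxa2 and Trh were lower, where the block gave 1 higher and 5 lower and 1 higher and 6 lower. Of these 5, Cldn5 (2.01) and Etv2 (-1.99) were lost without 2 of the embryos in turn, Kdr (-1.75) likewise, Trh (-1.25) without any one of them and Foxa2 without embryo 3. Mesenchyme markers summed to more in members, at 1166, 931 and 905 CPM against 570.1, 651 and 692, and 1 of 10 was higher, Msx1, their most abundant gene in members (5 higher and 1 lower with the block). Of 10 cardiac markers Tbx1 and Smarcd3 (-1.38) were lower, each lost without at least 2 of the embryos in turn, and 8 were lower with the block. Their sums were 60.9, 51.2 and 145.5 against 204, 279 and 183. None of 10 presomitic markers was called, with 6 lower with the block. The part of these markers in the results was not tested.

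Genes of epigenetic reprogramming, which germ cells undergo in the days that follow, were mostly not called. Of 18 tested genes of DNA methylation and its removal, 1 was higher (Gadd45b, 1.30) and none lower, and of 27 histone modifiers none was called. With the embryo as a block 3 and 3 of the former and 2 and 2 of the latter were higher and lower. Gadd45b, a stress-induced factor linked to demethylation, was lost without any 1 of the embryos (1.17, 1.26 and 1.45 without embryos 1, 2 and 3, adjusted p of 0.11, 0.084 and 0.11). Uhrf1, which guides the maintenance methyltransferase, stood at 138, 97.3 and 99.5 against 166, 129 and 136 (-0.34 ± 0.14, adjusted p = 0.30, or 0.0010 with the block). Dnmt3b, the de novo enzyme of the epiblast, stood at 270, 149 and 200 against 287, 171 and 245 (adjusted p = 0.80). By Dppa3 count it stood at 222, 115 and 158 in members with 2 or more UMIs and at 356, 219 and 251 in those with 1.

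Other lists gave few calls. None of 19 genes of the CCR4-NOT deadenylase, none of 19 of apoptosis, none of 18 cell cycle inhibitors and none of 32 of the G2 and M phases was called, and 1 of 30 of S phase, Gins2, was lower (-0.58, lost without embryo 2 or embryo 3, with an adjusted p of 0.28 and 0.31). Of 20 glycolysis genes the lactate transporter Slc16a1 was lower (-1.45, lost without embryo 2 at an adjusted p of 0.16), of 29 imprinted genes Phlda2 was higher (0.63, lost without embryo 2 at an adjusted p of 0.16), and of 13 genes of the mitochondrial genome none was called. With the embryo as a block the counts higher and lower were 1 and 0 for CCR4-NOT, 0 and 1 for apoptosis, 2 and 3 for cell cycle inhibitors, 2 and 3 for G2 and M, 1 and 5 for S phase, 1 and 5 for glycolysis, 4 and 6 for imprinted genes and 1 and 1 for the mitochondrial genome, beside 4.23% and 5.12% of all genes. Ribosomal protein genes were all uncalled, although 51 of 83 were higher with the embryo as a block, at a median log2 fold change of 0.14.

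Among the genes with the largest decreases in members was Foxa2, a factor of endoderm and notochord. It stood at 3.75, 3.42 and 2.67 in members against 15.5, 15.9 and 12.6 (-2.17 ± 0.27, adjusted p = 0.0029), and was lost without embryo 3 (-2.11, adjusted p = 0.053). Etv2, the factor that starts blood vessels, stood at 6.09, 3.42 and 16.0 against 37.4, 32.7 and 45.4 (-1.99 ± 0.33, adjusted p = 0.015), and was lost without embryo 1 (-1.62, adjusted p = 0.090) or embryo 2 (-1.93, adjusted p = 0.094). Fli1, an endothelial and blood factor, stood at 3.28, 1.71 and 3.21 against 11.1, 11.3 and 15.5 (-2.06), and Hhex, of liver and endothelium, at 3.75, 1.71 and 2.67 against 9.13, 11.6 and 12.1 (-1.86), both lost without at least 2 of the embryos in turn. Other genes with large decreases, Prkch, Gpx2, Dpp4, Cpn1, Tbx1 and Nrg1, had log2 fold changes from -3.86 to -2.0 on 1 to 16 UMIs in members, and each was lost without at least 2 of the embryos in turn. Upk3a had no UMI in members, at least 4.06-fold lower than in other cells (floor of 3 counts over all members), and missed the threshold without each embryo (adjusted p of 0.18, 0.16 and 0.19).

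Germ cells of this stage arise beside the streak, lie at the base of the allantois and enter the gut, so members were next set against these 3 neighbours. The neighbours were defined by transcripts too: caudal streak cells by T and Wnt3a without Noto and Foxa2 (665, 365 and 457 cells), allantois cells by Tbx4 with Hoxa10, Hoxa11 or Hoxa13 (237, 461 and 558), and gut endoderm cells by Foxa2 and Sox17 without T (378, 462 and 400). Gut endoderm cells by this rule also carried markers of extraembryonic endoderm, with summed levels of 8073.5, 15002 and 14194 CPM over those tested. Gut endoderm markers tested summed to 7238.4, 6120 and 7229.3 CPM in them. Ttr had a UMI in 77.7% of these cells, and the share of extraembryonic endoderm among them was not tested. The genes that define a neighbour were left out of its comparison. The 3 comparisons share the same member sums, so that they are not independent of each other.

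Against caudal streak cells 454 of 11009 genes were higher in members (4.12%) and 277 lower (2.52%), or 6.64% in all, and with the embryo as a block 779 (7.08%) and 646 (5.87%). Without each embryo in turn the counts were 174, 289 and 184 higher and 79, 120 and 98 lower. Ifitm3 stood at 28.6, 27.4 and 35.0 in streak cells (log2 fold change 3.76 ± 0.15, adjusted p = 9.3e-08) and Prdm1 at 2.39, 2.82 and 4.90 (2.80, against 15.5, 32.4 and 26.7 in members). Pou5f1 was not called against the streak, where it stood at 304, 198 and 248 (-0.09). Nor was Fgf8, at 97.7, 125 and 87.1 in the streak (0.09).

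Some genes of the Hox list and of the streak and mesoderm list were lower in members than in the streak. Streak cells were chosen by UMIs of T and Wnt3a, so higher levels of other genes of these lists in them can follow from that choice. Of 24 tested Hox genes, 13 were lower and none higher, or 14 lower and 1 higher with the embryo as a block. Their median log2 fold change was -1.04 against -0.0032 for all genes, and their sum was 392, 475 and 356 CPM in members against 825, 908 and 672. Hoxb1 stood at 52.5, 46.1 and 57.2 in members against 181, 131 and 134 (-1.49 ± 0.15, adjusted p = 0.00017). Of 21 streak and mesoderm genes 10 were lower and none higher, or 15 and 0 with the block. Tbx6, which commits cells to paraxial mesoderm, stood at 10.3, 8.54 and 18.2 in members against 59.7, 45.8 and 42.4 (-1.90 ± 0.24, adjusted p = 0.00068), and Cdx1, a caudal homeobox factor, at 164, 116 and 119 against 442, 385 and 309 (-1.48 ± 0.15, adjusted p = 0.00017). The activin antagonist Fst stood at 48.3, 63.2 and 71.1 against 325, 382 and 279 (-2.44 ± 0.16, adjusted p = 6.6e-06). The segmentation clock gene Hes7 stood at 24.8, 12 and 9.09 against 107, 99.8 and 78.9 (-2.53, or -3.17 to -2.28 without 1 embryo). No group of these overlapped. Npnt, an adhesive matrix protein, was among the genes most raised over the streak, at 26.7, 41.0 and 23.5 against 1.69, 2.05 and 1.86 (3.95 ± 0.26, adjusted p = 6.2e-06).

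Of 24 genes of BMP signalling 11 were higher than in the streak and none lower (median log2 fold change 0.50), or 11 and 2 with the embryo as a block. Against the other neighbours the list differed. Of 26 genes 1 was higher and 8 lower against the allantois (median -0.15), beside 7.15% and 4.93% of all genes. Against the gut 7 of 26 were higher and 10 lower (median -0.43), beside 13.7% and 20.5% of all genes. Bmp4 stood at 72.6, 88.8 and 53.5 in members against 21.7, 25.3 and 24.4 in the streak (1.54 ± 0.17, adjusted p = 0.00025), Smad7 at 60.5, 66.6 and 66.3 against 18.5, 19 and 20.4 (1.73), and Id4 at 16.9, 18.8 and 13.9 against 2.81, 1.41 and 2.67 (2.72). Of 24 surface genes 12 were higher and 1 lower, or 14 and 1 with the embryo as a block. Among the higher was Cldn7, a tight junction claudin, at 81.1, 140 and 96.8 against 12.7, 20.0 and 24.7 (2.42 ± 0.26, adjusted p = 0.00024). Of 32 interferon genes 15 were higher and none lower, or 16 and 1 with the block. Dnmt3a, a de novo methyltransferase, stood at 46.4, 34.2 and 33.2 against 76.2, 70.6 and 67.8 (-0.88 ± 0.14, adjusted p = 0.0028), lost without embryo 3 (-0.79, adjusted p = 0.056).

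Against allantois cells 782 of 10944 genes were higher (7.15%) and 539 lower (4.93%), or 12.1% in all. The counts were 439, 413 and 312 higher and 290, 216 and 166 lower without each embryo in turn, and 1171 higher (10.7%) and 954 lower (8.72%) with the block. Of 18 pluripotency genes, 11 were higher and 1 lower. The log2 fold change was 1.73 for Pou5f1, 1.84 for Sox2 and 3.25 for Nanog. Of 25 tested Hox genes 14 were lower and 2 higher, with a median log2 fold change of -1.31 against 0.0057 for all genes. Allantois cells were chosen by UMIs of Hoxa10, Hoxa11 or Hoxa13, so higher levels of other Hox genes in them can follow from that choice. Hoxc8 stood at 8.90, 20.5 and 11.2 in members against 82.5, 93.1 and 84.7 (-2.86 ± 0.20, adjusted p = 2.2e-06), and Hoxc10 had 3 UMIs in members against 13.1, 14.2 and 13.4 CPM. The limb and allantois factor Pitx1 stood at 14.5, 5.12 and 11.8 against 169, 233 and 212 (-4.04 ± 0.21, adjusted p = 1.8e-07).

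Imprinted genes differed as well, with 13 of 26 lower in members and none higher, and summed levels of 4466, 3788 and 4392 against 6931, 7459 and 7693. H19 stood at 281, 225 and 453 in members against 663, 702 and 738 (-1.05 ± 0.18, adjusted p = 0.0023), and Cdkn1c, a cell cycle inhibitor, at 131, 56.4 and 187 against 300, 633 and 648 (-1.93 ± 0.32, adjusted p = 0.0017). The list did not go the same way against the streak, where 7 of 27 were higher and 2 lower (8 and 3 with the embryo as a block). Of all genes 4.12% were higher and 2.52% lower there. Against the gut 6 of 26 were higher and 12 lower, beside 13.7% and 20.5% of all genes. The ligands separated in opposite directions. Kitl stood at 18.7, 22.2 and 28.9 in members against 85.9, 90.5 and 79.0 in the allantois (-1.81 ± 0.16, adjusted p = 1.3e-05), whereas Cxcl12 stood at 72.2, 88.8 and 56.2 against 12.2, 8.80 and 12.6 (2.68 ± 0.19, adjusted p = 2.3e-06). The adhesion molecule Epcam stood at 250, 304 and 193 against 45.1, 53.4 and 54.6 (2.3 ± 0.15, adjusted p = 1.4e-06), and 16 of 22 surface genes were higher and 2 lower.

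Against gut endoderm cells 1528 of 11190 genes were higher (13.7%) and 2299 lower (20.5%), or 34.2% in all. The counts were 1607, 771 and 680 higher and 2279, 1487 and 1340 lower without each embryo in turn, and 1851 (16.5%) and 2561 (22.9%) with the block. Of 18 pluripotency genes, 11 were higher and 4 lower. Pou5f1 (log2 fold change 3.48), Sox2 (2.24), Nanog (4.24) and Tfap2c (5.32) were all higher, while Prdm1, which endoderm also expresses, stood at 15.5, 32.4 and 26.7 in members against 19.6, 14.9 and 13 and was not called (0.49, adjusted p = 0.18), though it passed without embryo 1 (0.95, adjusted p = 0.0060) and among members with 2 or more UMIs of Dppa3 (0.91, adjusted p = 0.022). Gdf3 had no UMI in gut endoderm cells. All 22 tested of the 30 Hox genes on the list were higher in members, with sums of 390, 466 and 352 CPM against 65.8, 72.3 and 51.5. The filter on low genes keeps a gene that is high enough in members alone and drops one low in both classes. That all 22 were higher can follow in part from this filter. Over the Hox genes kept in each comparison, members thus summed to less than the streak and more than the gut, with no overlap.

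Of 25 surface genes 13 were lower in members and 5 higher. Cldn6, a claudin of early epithelia, stood at 30.5, 61.5 and 43.3 in members against 323, 282 and 290 (-2.90 ± 0.19, adjusted p = 5.9e-06). Of 13 genes of the mitochondrial genome 11 were lower, and mt-Co3 stood at 6350, 5591 and 6303 against 11161, 9773 and 11440 (-0.89). Among 24 genes that were lower and had no UMI in members were Hkdc1, a hexokinase relative (at least 14.1-fold lower), Ambp, a plasma protein (at least 13.3-fold), Plg, plasminogen (at least 11.7-fold), and Pdx1, the pancreatic factor (at least 6.43-fold). All 9 tested markers of extraembryonic endoderm were lower in members too (median log2 fold change -4.28), as were all 8 of gut endoderm (-2.94). Gut endoderm cells were chosen by UMIs of Foxa2 and Sox17, so higher levels of other endoderm markers in them can follow from that choice. The part of extraembryonic endoderm in these differences was not tested. Of 32 interferon genes 15 were higher and 7 lower, the latter a share near that of all genes (20.5%). Psmb8 stood at 0, 0.402 and 0.122 in the gut (6.59, or 5.95 to 8.11 without 1 embryo) and Psme1 was higher by 2.19 on the log2 scale.

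The genes of germ cell identity differed in how far they set members apart from each neighbour. Ifitm3 had nearly the same log2 fold change against the streak, the allantois and the gut, at 3.76, 3.79 and 3.70. Tfap2c had 1.93, 4.06 and 5.32, and Alpl 1.02, 1.87 and 3.74, so that their contrast was smallest against the streak and largest against the gut. Psme1 had 1.83, 1.75 and 2.19. The differences between these fold changes were not tested.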

How the data were processed

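Single-cell suspensions of 3 single embryos, from which extraembryonic tissue had been removed, were sequenced as 10x Genomics 3′ libraries. By the submitters' processing notes, the authors used Cell Ranger 3.1.0 and mm10, and they deposited a matrix of raw UMI counts per gene and barcode for each embryo. The 31054 features were taken by the symbols of the matrices, and symbols shared by several features were kept out of the gene lists. Members, their gene lists and the tests were chosen with earlier results of these data known.

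UMIs were summed per embryo over members and over each comparison class, and tested with edgeR 4.0.16 (TMM normalization, filterByExpr, quasi-likelihood test, Benjamini-Hochberg adjusted p under 0.05), leaving out the selecting genes. The filter keeps a gene that is high enough in either class. Some genes low in the comparison class were thus tested through their level in members alone. Both sums come from the same embryo, so the embryo pairs them, and their deviations from the class means correlated at 0.249, 0.168 and 0.136 across genes in embryos 1, 2 and 3. The fit without the embryo is reported first. The fit with it as a block is given for counts over all genes, for the lists described against all other barcodes and against the streak, and for named genes whose call it changes. Separate embryos were the replicates. DESeq2 1.42.0, other filters, other members and leaving out each embryo were tried as alternatives. Scrublet, run in scanpy 1.11.5, called 1 doublet in each library and was not used as a caller, so only its highest 6% of scores served as an alternative. Cells were thinned to 5000 UMIs without replacement. A count of 0 was bounded at 3 counts over all members. The fit without the block was also run on simulated sums with known fold changes. These were drawn without an effect of the embryo, so they cannot show how the pairing of the sums bears on the calls.

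Named genes were those of the fixed lists and, in each comparison, the 12 largest and 12 smallest log2 fold changes among genes that passed, had the same sign in all embryos and held at least 30 UMIs in the higher class. Not all of the latter are printed, and some genes are not reported here. Promoters came from RefSeq (GRCm38.p6). Genes with near-identical copies, such as the Ifitm, Sprr2a, Rhox and H2 families, can share reads.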

Additional observations from a re-analysis of the deposited data

Results flagged for a closer look

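The gene rule was met by 9 barcodes outside the QC limits (8 in embryo 1, 1 in embryo 2 and 0 in embryo 3) among 1365 barcodes outside them. They were singled out because they carry the selecting transcripts but enter no comparison. All 9 held more genes than the upper limit of their library, and none was removed for mitochondrial UMIs. With a limit of 8500 genes in every embryo, 1 of them joined the members, for 146 in all.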

How the results depend on the processing

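The number of members was set by the rule and by depth, at 92 with at least 2 UMIs of Dppa3, 27 with all 3 selecting genes and 39 after thinning, against 145. Shares of members with a UMI fell on thinning to 16.8% for Prdm1, 6.99% for Prdm14, 22.4% for Tfap2c, 21.7% for Kit, 42.0% for Alpl, 70.6% for both Ifitm3 and Pou5f1, 33.6% for Sox2 and 4.90% for Nanog. Against all other barcodes, DESeq2 called 504 genes higher and 167 lower, and the fit with the replicate block, in which the embryo pairs the sums, 655 and 793. A mean level of at least 10 CPM left 99 and 21, no filter gave 133 lower, Dppa3 of at least 2 UMIs 80 lower, and leaving out the highest doublet scores 102 lower. Leaving out 1 embryo gave 56 to 99 higher and 2 to 40 lower. Higher genes of the germ cell list were 10 by DESeq2, 11 with the block, 10 at 2 UMIs of Dppa3 and 5 to 6 without 1 embryo. Without 1 embryo the pluripotency list had 3 to 5, the interferon list 7 to 13 and the later germline list 1 to 4, and at 10 CPM the latter lists had 5 and 2. Against the caudal streak no filter gave 720 higher and 640 lower, the block 779 and 646, Dppa3 of at least 2 UMIs 430 lower, and leaving out 1 embryo 174 to 289 and 79 to 120. Against the allantois no filter gave 990 and the block 954 lower, and leaving out 1 embryo 312 to 439 higher and 166 to 290 lower. Against the gut leaving out 1 embryo gave 680 to 1607 higher and 1340 to 2279 lower. The causes of these shifts were not tested.

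No named gene that passed a test changed sign under any alternative. Genes near no difference did, with log2 fold changes for Lin28a of -0.0066 with no filter, -0.14 at 2 UMIs of Dppa3 and -0.0053 without the highest doublet scores, for Klf4 of -0.0066 without embryo 2 and -0.048 without embryo 3 (0.51 without embryo 1), for Pou5f1 against the streak of 0.067 at 2 UMIs of Dppa3 and for Fgf8 against the streak of -0.28 without embryo 3 (0.32 without embryo 1). Of 78 named genes called against all other barcodes, 27 were called without each embryo in turn. With at least 2 UMIs of Dppa3, a setting partly added after seeing the data, Pou5f1 (1.06, adjusted p = 0.035 by edgeR), Sox2 (0.61, 0.032), Nanog (2.16, 0.026), Bmp4 (0.87, 0.034) and Kitl (-1.02, 0.020) passed, as did Prdm1 against the gut (0.91, 0.022). Epcam (0.69, 0.051), Tfap2a (1.14, 0.12), Cdx2 (0.49, 0.060), Fgf17 (1.13, 0.067), Tbx1 (-2.25, 0.060), Trh (-0.89, 0.12), Slc16a1 (-1.24, 0.068), Upk3a, Prkch, Dpp4, Cpn1 and Nrg1 did not. Depth limits the low genes, since members held 4588709 UMIs in all, and 24 cells stand for embryo 2.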
